A study of Arabidopsis thaliana with 6 samples.

Results

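Seeds of Arabidopsis thaliana mature under a small set of transcription factors. FUS3 (FUSCA3, AT3G26790, chromosome 3) and ABI3 (ABSCISIC ACID INSENSITIVE 3, AT3G24650, chromosome 3) are B3-domain proteins that bind RY motifs in promoters of seed genes. LEC1 (LEAFY COTYLEDON 1, AT1G21970, chromosome 1) is a seed-specific NF-YB subunit of a CCAAT-binding complex that acts early in the embryo and promotes expression of the others. EM1 (AT3G51810, chromosome 3) encodes a late embryogenesis abundant protein, a downstream product of the programme that accumulates as seeds prepare to dry and is activated by ABI3 together with the bZIP factor ABI5. Outside the embryo these genes are mostly kept silent by chromatin-based repression.

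The 4 genes were taken by locus name from a custom Agilent array aimed at long intergenic noncoding RNAs (lincRNAs). All non-control probes whose annotation begins with one of the 4 loci were used, which gave 12 of 15013 probes, 3 for each gene. The genes were picked with the difference between the genotypes on these arrays already known, so their differences are given as a description, without p-values.

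The arrays measured total RNA from inflorescences of Col-0 plants aged 4 weeks, with open flowers and buds and some very young siliques. There were 3 wild-type samples and 3 samples titled as rdr2 mutants, each hybridised alone with Cy3-labelled cRNA made from 0.5 µg of RNA. RDR2 is the RNA-dependent RNA polymerase that copies RNA polymerase IV transcripts into the precursors of small interfering RNAs for DNA methylation. The protocol and sample descriptions name the allele rdr2-1 for every mutant sample, whereas the genotype field numbers it rdr2-1, rdr2-2 and rdr2-3 in replicates 1 to 3. The samples were kept as 1 group. The submitters call the replicates biological, without saying how plants were pooled or planted, so p-values measure the spread between these samples. The fit used below treats the arrays as independent, although replicates 1 and 2 of each group shared a slide (r of 0.995 and 0.994). It can thus understate that spread.

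Scaled signal below is a probe's background-subtracted intensity divided by the array's 75th percentile over 2369 probes detected on all 6 arrays, times 100. It compares arrays for 1 probe and does not rank probes or genes by abundance. Detected means flagged well above background by the scanner software. Between 17.6% and 37.9% of probes were detected per array, with the 2 lowest shares on mutant replicates 1 and 2. These 2 arrays shared a slide, as did wild-type replicates 1 and 2, and the third replicate of each group lay on a slide of its own. On each of its 3 probes RDR2 was 6.18- to 6.65-fold lower on the mutant arrays (limma adjusted p of at most 0.000301). The 3345 probes detected on all 3 arrays of at least 1 group had a median log2 difference, mutant minus wild type, of -0.26. Differences are also given relative to this median, which was 0.16 with no filter and -0.43 with detection on at least 1 array. None of the 58 marker genes listed for floral organs, anthers, pollen, carpels and ovules, embryo and endosperm, leaf, root and housekeeping had a probe. The labelled tissue, and the amount of seed in each sample, could therefore not be checked. In RNA from whole inflorescences, fewer cells of a type and less RNA per cell cannot be told apart.

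FUS3 was lower in the mutant on all of its probes, by slightly more than 3-fold. Its 3 probes were detected on all 6 arrays. On probe 1 the scaled signal was 54.0, 53.6 and 57.5 on wild-type arrays 1 to 3, against 18.4, 14.3 and 21.8 on mutant arrays 1 to 3. On probe 2 it was 70.3, 81.6 and 75.3 for wild type, against 21.7, 20.4 and 23.6 for the mutant. On probe 3 it was 40.7, 48.6 and 35.5 for wild type, against 14.1, 10.2 and 15.4 for the mutant. Every mutant array was below every wild-type array on each probe, as on 26.6% of the 3345 tested probes.

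The means of FUS3 were 55.0 ± 2.2 and 18.2 ± 3.76 on probe 1, 75.7 ± 5.65 and 21.9 ± 1.57 on probe 2, and 41.6 ± 6.63 and 13.3 ± 2.69 on probe 3 (wild type and mutant, SD, n = 3 each). These correspond to signals 3.07-, 3.46- and 3.16-fold lower in the mutant. The log2 differences were -1.62 (SE 0.182), -1.79 (SE 0.126) and -1.66 (SE 0.213). Between 3.44% and 4.99% of the 3345 tested probes had a difference as low or lower. Averaged over the 3 probes, FUS3 stood at -1.69, which is -1.43 relative to the median tested probe.

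The FUS3 difference was present in both pairings of slides. No slide held both genotypes, and the recorded scan dates split the arrays as the slides did. Slide and scan therefore cannot be told apart from genotype. Between the slides that each carried 2 arrays of a genotype the mean log2 difference was -1.82, and between the slides with a single array it was -1.43. In raw median pixel intensity the FUS3 spots read 146 to 290 on wild-type arrays over local backgrounds of 12 to 16, and 33 to 99 on mutant arrays over 13 to 28. The local background around these spots was 26 to 28 on mutant replicate 3 and 12 to 16 on the other 5 arrays. These raw values are not scaled for the brightness of the arrays. The 75th percentile used for scaling was 305 to 371 on wild-type arrays and 155 to 285 on mutant arrays. The size of the FUS3 difference depended on the background correction. With normexp, which here adds an offset of 50 to every spot, the mean log2 difference was -0.79, and with scaling to the 75th percentile of all probes it was -1.08. Relative to the median tested probe these values were -0.89 and -1.43. Scaling to all probes rested on dim signal. On wild-type replicate 3 and the mutant arrays 17.6% to 24.8% of probes were detected. The 75th percentile of all probes thus lay near or below the detection limit there. FUS3 lay below the median tested probe under all 18 alternatives fitted.

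**Figure D1:**
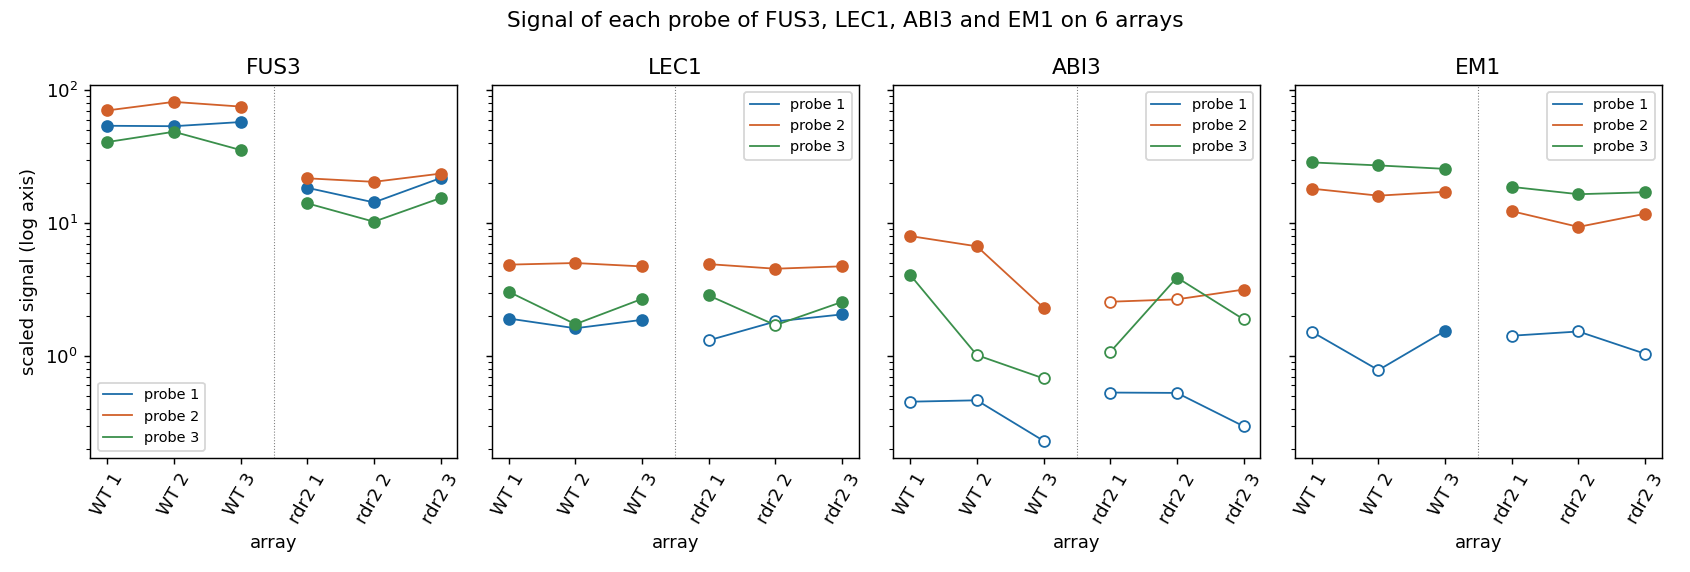
Scaled signal (log axis, each array's 75th percentile over commonly detected probes set to 100) of the 3 probes of each gene on the 3 wild-type (WT) and 3 rdr2 mutant arrays. Filled points are well above background and open points are not; lines join the arrays of a genotype for legibility only. FUS3 separates into 2 ranges, EM1 separates on probes 2 and 3, and LEC1 and ABI3 overlap.

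LEC1 was close to background and its 2 groups overlapped on every probe. On probe 2, the sole LEC1 probe detected on all 6 arrays, the scaled signal was 4.87, 5.01 and 4.72 for wild type, against 4.91, 4.54 and 4.73 for the mutant. The log2 difference was -0.04 (SE 0.108). Probe 1 read 1.62 to 1.91 for wild type and 1.31 to 2.06 for the mutant, with 1 mutant array above the detection limit. Probe 3 read 1.74 to 3.04 and 1.71 to 2.85, and was detected on 2 mutant arrays. Their log2 differences were -0.08 (SE 0.202) and -0.06 (SE 0.298).

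The direction of so small a LEC1 difference followed the scaling. Averaged over its probes LEC1 stood at -0.06 on the log2 scale, at 0.59 after quantile normalization and at 0.55 with scaling to all probes. Relative to the median tested probe these values were 0.20, 0.61 and 0.20, and with no filter the first was -0.22. Small differences of either sign were thus not resolved for this gene.

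ABI3 was near background, and its wild-type arrays differed widely among themselves. Probe 1 was not detected on any array. Probe 2, the sole ABI3 probe bright enough to test, read 7.99, 6.68 and 2.31 on wild-type arrays 1 to 3, against 2.56, 2.67 and 3.16 for the mutant. It was detected on all wild-type arrays and on mutant array 3 alone. Wild-type array 3 lay below all 3 mutant arrays, and the groups overlapped. Probe 3 was detected on wild-type replicate 1 (4.08) and mutant replicate 2 (3.89) alone, and read 0.679 to 1.89 elsewhere.

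The mean of ABI3 probe 2 was 5.66 ± 2.98 for wild type, against 2.80 ± 0.320 for the mutant (n = 3 each, SD), with a log2 difference of -0.84 (SE 0.486). Without wild-type array 3 the difference was -1.39, and this probe was then called, as were 28.6% of all tested probes. Leaving out the lowest wild-type array widens the difference by construction. Between the slides with 2 arrays it was -1.48, and between the slides with a single array 0.45. The 2 wild-type arrays that were high shared a slide and also had the largest shares of detected probes (37.9% and 37.4%, against 24.1% for wild-type replicate 3). The part of the slide in the ABI3 values was not tested.

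The transcripts nearest to ABI3 probe 2, by Euclidean distance between log2 values centred over the 6 arrays, were the lincRNA units AT5TU046570 (distance 0.184), AT5TU059200 (0.190) and AT1TU058010 (0.217). AT5TU046570 read 11.6 and 10.2 on wild-type arrays 1 and 2 and 3.28 on array 3, against 3.33 to 4.20 for the mutant. They were picked for this likeness on the same arrays, so that they split alike is no separate result.

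EM1 was lower in the mutant on the 2 probes that detected it on all arrays, each by less than any FUS3 probe. On probe 2 the scaled signal was 18.2, 16.1 and 17.2 for wild type, against 12.3, 9.36 and 11.8 for the mutant. On probe 3 it was 28.6, 27.2 and 25.6 for wild type, against 18.7, 16.5 and 17.04 for the mutant. The groups did not overlap on either probe. Of all tested probes, 26.6% likewise had every mutant array below every wild-type array.

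The means of EM1 were 17.1 ± 1.04 and 11.1 ± 1.56 on probe 2 and 27.1 ± 1.51 and 17.4 ± 1.16 on probe 3 (wild type and mutant, SD, n = 3 each). The signals were 1.55- and 1.56-fold lower, with log2 differences of -0.63 (SE 0.151) and -0.64 (SE 0.119). Differences this low were common on these arrays, since 26.9% and 26.7% of the tested probes were as low or lower. Relative to the median tested probe the 2 EM1 probes stood at -0.37 and -0.38. Probe 1 read 0.783 to 1.54 on the wild-type arrays and 1.04 to 1.53 on the mutant arrays, and was detected on wild-type array 3 alone. No fold is given for it.

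The 2 tested EM1 probes were below 0 on both kinds of slide, none of which held both genotypes. The size of their difference depended on the scaling. Between the slides with 2 arrays they stood at -0.67 and -0.67, and between the slides with a single array at -0.55 and -0.59. After quantile normalization their log2 differences were -0.40 and -0.52, with normexp -0.04 and -0.12, and with scaling to the 75th percentile of all probes -0.02 and -0.03. The mean over all 3 probes, which takes in the mostly undetected probe 1, was -0.39. It came out at 0.22 with scaling to all probes and 0.03 with normexp, where probe 1 alone was above 0 (0.71 and 0.25). Relative to the median tested probe, the mean over all 3 probes was -0.13 at the main scaling and with scaling to all probes. It was -0.12 with quantile normalization and -0.07 with normexp, and ranged from -0.55 with no filter to 0.04 with a filter of 1 array.

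Of the 12 probes, 9 passed the filter on dim probes: 3 of FUS3, 3 of LEC1, 1 of ABI3 and 2 of EM1. In the limma fit over all 3345 tested probes, 8.49% were called lower in the mutant at an adjusted p under 0.05, 5.11% were called higher, 26.6% had every mutant array below every wild-type array, and 38.8% had groups without overlap in either direction. The 3 FUS3 probes and the 2 tested EM1 probes were called lower, no probe of the 4 genes was called higher, and the same 5 probes had groups that did not overlap. The fit had no slide term, although arrays that shared a slide correlated at r of 0.994 and 0.995. With slide as a random block 1 FUS3 probe and 0 EM1 probes were called. That fit called 3.35% of all tested probes, against 13.6% without a slide term. The direction of the calls over the array followed the scaling: 171 higher and 284 lower (37.6% higher), against 172 and 146 (54.1%) after quantile normalization, 191 and 186 (50.7%) when arrays were scaled to their medians, and 125 and 36 (77.6%) when scaled to all probes. As the genes were chosen on this contrast, these counts carry no further weight.

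**Figure D2:**
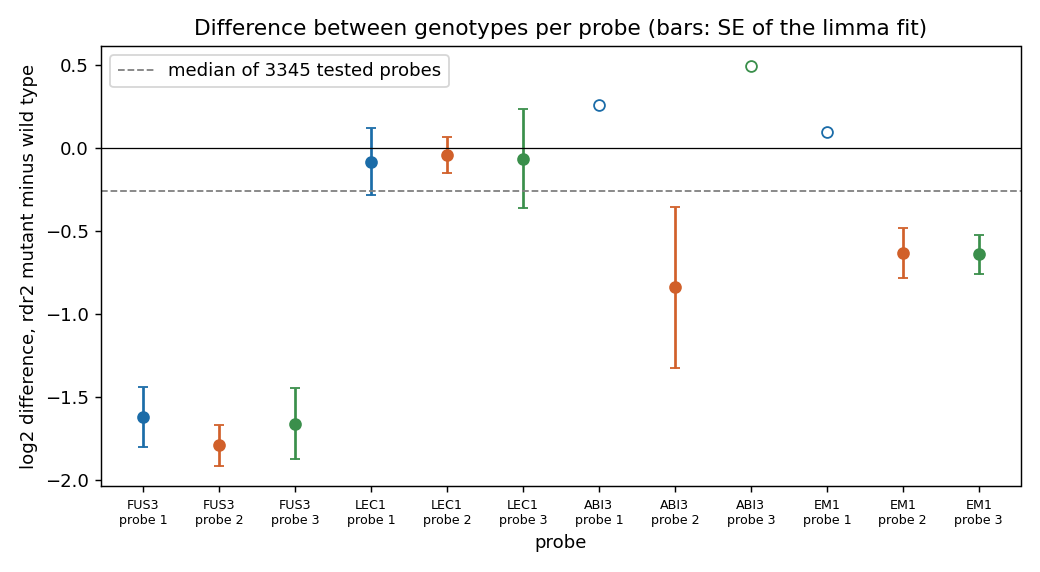
Log2 difference, rdr2 mutant minus wild type, for each of the 12 probes; bars are the standard error of the limma fit, open points are probes too dim to test, and the dashed line is the median of all tested probes. The 3 FUS3 probes lie between -1.62 and -1.79, EM1 probes 2 and 3 near -0.64, and the LEC1 probes between -0.04 and -0.08.

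Over the tested probes of each gene, the mean log2 difference was -1.69 for FUS3, -0.84 for ABI3 (1 probe), -0.64 for EM1 and -0.06 for LEC1. The ABI3 probe passed the filter through its wild-type arrays alone, and the mean over all 3 ABI3 probes was -0.03. No test of the differences between the genes was made, since all of them come from the contrast on which the genes were chosen.

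**Figure D3:**
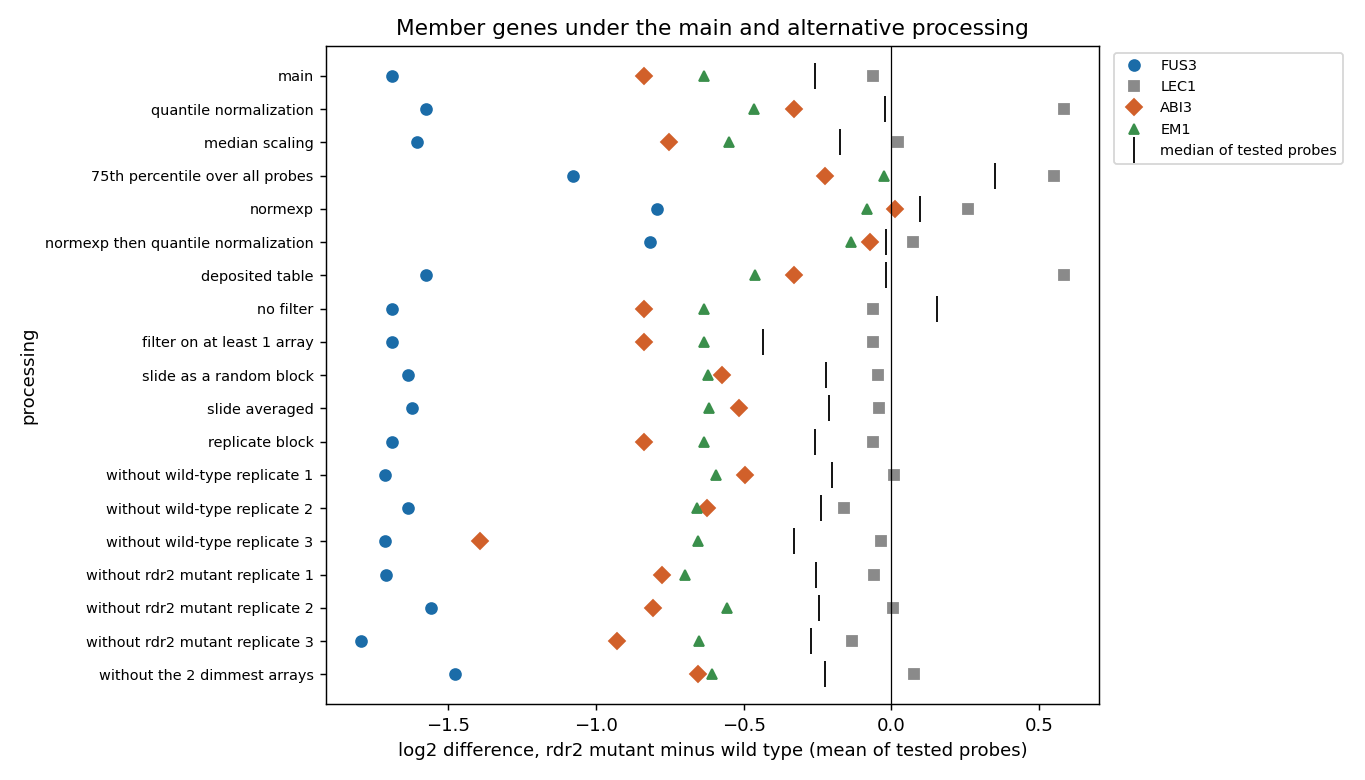
Log2 difference, rdr2 mutant minus wild type, of each gene (mean of the 3 FUS3, 3 LEC1, 1 ABI3 and 2 EM1 probes tested in the text) under the processing used in the text (main) and 18 alternatives; black ticks mark the median of the tested probes. FUS3 lies left of the median in every line, from -1.79 to -0.79, EM1 lies below 0 in every line, ABI3 ranges from -1.39 to 0.014 and LEC1 lies on both sides of 0.

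Few other genes of the same network had probes, and 1 of their tested probes was called. Of 72 genes in 5 lists (seed maturation regulators, seed storage and late embryogenesis abundant proteins, repressors of the seed programme, abscisic acid genes, and the miRNA pathway), 12 were on the array and 11 had a tested probe. Of their 29 tested probes limma called 1 higher and 0 lower, and at an unadjusted p under 0.05 there were 2 higher and 2 lower. The background was 13.6% of tested probes called in either direction.

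Among the regulators, ABI5, the bZIP partner of ABI3 at the EM1 promoter, gave a strong signal on all arrays. Its probe with the smallest p read 1498 ± 14.9 for wild type, against 1256 ± 19.5 for the mutant (n = 3 each, SD). Its log2 difference was -0.25 (SE 0.104, limma adjusted p = 0.154), next to the -0.26 of the median tested probe, and was 0.36 with scaling to all probes. ABI4, an AP2-type factor of abscisic acid and sugar responses, had a tested probe near background, at -0.34 (SE 0.541, limma adjusted p = 0.675). Its groups overlapped.

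The LEA gene EM6, the closest relative of EM1 in these lists, was not detected on any wild-type array. One of its 3 probes was detected on mutant replicate 3 (scaled signal 1.89), and read 0.421 to 0.605 for wild type and 1.53 to 2.29 for the mutant. Values of undetected probes were generally higher in the mutant at this scaling. Over the 8098 probes detected on no array the median log2 difference was 0.54, and 25.1% of them had every mutant array above every wild-type array. The difference of EM6 is not read as expression.

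PKL, a CHD3 chromatin remodeller that represses LEC1 and FUS3 in seedlings, had log2 differences of 0.06, 0.04 and -0.16 on its 3 probes (smallest limma adjusted p = 0.328). DCL1, the Dicer of the miRNA pathway, which holds back seed maturation genes in early embryos, stood at -0.08, -0.34 and -0.36 (smallest limma adjusted p = 0.114). The mutant arrays were all below the wild-type ones on 1 PKL probe and 2 DCL1 probes, and also on ABI5 probes 2 and 3. The same was seen on 26.6% of all tested probes. With scaling to all probes the PKL and DCL1 probes of smallest p stood at 0.45 and 0.27.

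In the abscisic acid list, 7 of 22 genes were measured. KIN1, a cold- and abscisic acid-inducible gene, rose on 1 of its 2 tested probes, with a log2 difference of 0.85 (SE 0.167, limma adjusted p = 0.0282). This probe read 36.5, 40.0 and 39.9 for wild type, against 79.1, 76.2 and 56.9 for the mutant, so 3 of 3 mutant arrays were higher. The other tested probe stood at 0.19, and the call was lost under 12 of 18 alternatives, each of the fits without wild-type replicate 1 or 2 and without mutant replicate 1 or 2 among them (adjusted p over all alternatives 0.00882 to 0.318). The phosphatases ABI1 and ABI2, which block abscisic acid signalling, lay between -0.34 and 0.04. AFP1, which binds ABI5 and lowers its activity, lay between 0.14 and 0.37. The stress genes RD29A, RD29B and COR15A ranged from -0.22 to 1.3, and none of their tested probes was called. The highest of these was a COR15A probe that read 164 on wild-type replicate 2 and 1032 and 1648 on the other wild-type arrays. Every mutant array was above every wild-type array on KIN1 probes 1 and 3, AFP1 probe 1 and COR15A probe 2. The same was seen on 12.2% of all tested probes.

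**Figure D4:**
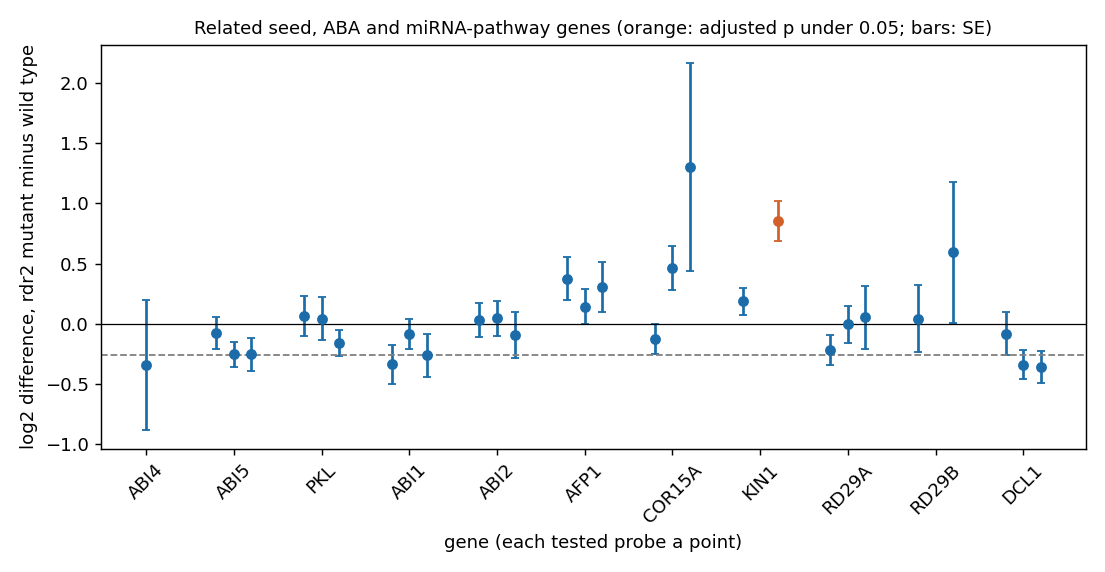
Log2 difference, rdr2 mutant minus wild type, of every tested probe of 11 related genes; bars are standard errors of the limma fit, orange marks an adjusted p under 0.05 and the dashed line is the median of all tested probes. One KIN1 probe, at 0.85, is the sole call, and the ABI5, PKL and DCL1 probes lie between -0.36 and 0.06.

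The transcript most like FUS3 over the 6 arrays was that of JAZ5 (AT1G17380), a repressor of jasmonate signalling, at a Euclidean distance of 0.167 on the centred log2 scale. Its probe read 1921 ± 39.6 for wild type, against 539 ± 27.3 for the mutant (n = 3 each, SD), and was thus 3.56-fold lower. The lincRNA units AT3TU066170 (distance 0.212) and AT5TU018610 (0.313) followed, at 3.41- and 2.94-fold lower. AT3TU066170 read 41.0 to 41.5 on the wild-type arrays and 11.9 to 12.3 on the mutant arrays. Since likeness was measured on the same arrays, these transcripts were bound to differ between the genotypes as FUS3 did.

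The transcripts most like EM1 probe 3 were the precursor ath-MIR840 (distance 0.0560), the cold-responsive gene COR15B (AT2G42530, 0.111) and the long noncoding RNA AT4G04077 (0.151), at 1.58-, 1.56- and 1.52-fold lower in the mutant. With scaling to all probes their log2 differences were -0.05, -0.03 and 0.0042. For LEC1 probe 2 the nearest were the flat profiles of the noncoding RNAs AT3G26612 (0.0422) and AT1G77138 (0.0649) and of the unit AT4TU029990 (0.0690).

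**Figure D5:**
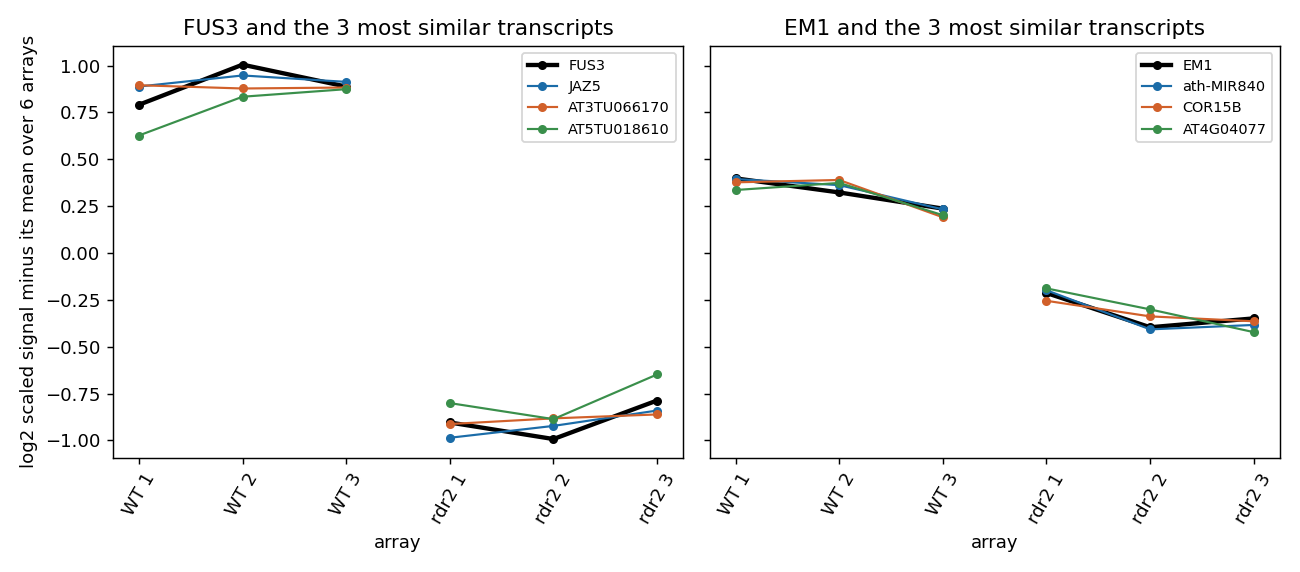
Log2 scaled signal of FUS3 probe 2 (left) and EM1 probe 3 (right), each with the 3 transcripts of smallest Euclidean distance to it, centred on the mean over the 6 arrays. The FUS3 group steps down by about 1.6 to 1.8 between wild-type and mutant arrays and the EM1 group by about 0.6 to 0.7.

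In the gene order of the RefSeq table, 2 loci within 30 genes of FUS3 and 2 within 30 genes of ABI3 had probes, and PAD3 and AT3G24518 were singled out after their values were seen. PAD3, a cytochrome P450 of camalexin synthesis that lies 15 genes from FUS3, stood at -0.69, -0.67 and -0.43 on its 3 probes, 2 of which limma called lower (adjusted p = 0.0269 and 0.0350). The first of these calls was lost under 15 of 18 alternatives (adjusted p 0.0151 to 0.953). AT3G26612, which lies 27 genes away, stood at -0.13, -0.06 and -0.13 (smallest limma adjusted p = 0.581). Near ABI3, the long noncoding RNA AT3G24518, 26 genes away, stood at -0.58, -0.39 and -0.68, of which the first was called lower (limma adjusted p = 0.0449) and kept that call under 2 of 18 alternatives, with a range of adjusted p of 0.028 to 0.982. AT3G24542, 19 genes from ABI3, had 1 tested probe near background, at -1.20 (limma adjusted p = 0.107). No locus of the RefSeq table within 30 genes of LEC1 or EM1 had a probe. The lincRNA units and the miRNA precursor named above had no match in that table. Any such transcripts near FUS3, ABI3, LEC1 or EM1 were therefore not counted.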

How the data were processed

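Per the file headers, the authors scanned each array in 1 channel. Agilent Feature Extraction was version 10.5.1.1 for 5 arrays and 10.7.3.1 for mutant array 3. Its deposited processed signal is a background-subtracted and detrended intensity, and the deposited median spot signal an uncorrected intensity. The authors' value table is on a log2 scale. It was within 0.1 of the quantile-normalized log2 of processed signals floored at 1 for at least 99.86% of probes on each array.

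Each probe had 1 spot, and none of the 12 spots was saturated or marked uneven on any array. Each processed signal was divided by the array's 75th percentile before taking log2. Probes detected on all 3 arrays of a group were fitted with limma 3.58.1 under R 4.3.3 (functions lmFit and eBayes, genotype without covariates), and p-values were adjusted over all 3345 by Benjamini-Hochberg. The procedure was tested on simulated data in which arrays varied independently, so that test does not cover the likeness of arrays on a shared slide. Figures used matplotlib 3.10.9. A gene's value is the mean of its 3 probes or, where stated, of its tested probes. Precision is limited by the 3 arrays per group.

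The 4 genes and the lists were chosen with earlier results of these data known. Named besides them were RDR2, list genes with a call (at most 4 per list, otherwise the 2 with the smallest p) and, per gene, the 3 transcripts with the nearest pattern. Probe names were matched by locus to the RefSeq table of assembly TAIR10.1. Its chromosome and start coordinates were used only to put genes in order. Probe sequences were not used here, and cross-hybridisation between related genes was not tested.

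No slide held both genotypes, so slide was left out of the fit above and entered an alternative fit as a random block (consensus correlation 0.773). Replicate numbers did not pair the arrays: deviations from the group means correlated at r of -0.123, -0.120 and -0.152 for numbers 1 to 3. Alternatives covered scaling, background correction, the deposited table, the filter, slides, the replicate block and left-out arrays. Normexp used median spot signals, as mean signals are not in the files.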

Additional observations from a re-analysis of the deposited data

How the results depend on the processing

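The RDR2 difference kept its call under all 18 alternatives (log2 -2.75 to -2.08, adjusted p of at most 0.0348). That highest p came without the 2 dimmest arrays, a fit with 1 mutant array, which is assumed to vary like the wild-type arrays. Mean differences of FUS3 moved by more than the spread of the arrays with scaling to the 75th percentile of all probes (-1.08), normexp (-0.79), normexp followed by quantile normalization (-0.82, chosen after seeing the data) and without the 2 dimmest arrays (-1.48); left-out arrays gave -1.79 to -1.56. LEC1 moved to 0.59 with quantile normalization, 0.58 in the deposited table, 0.55 with scaling to all probes and 0.26 with normexp. The mean of the 3 ABI3 probes was -0.03, and -0.50 to 0.39 with arrays left out. ABI3 stood at -0.84 on its brightest and sole tested probe, which gave -1.39 to -0.50 with arrays left out. EM1 moved to -0.14 with quantile normalization, -0.088 with normexp followed by quantile normalization, -0.14 in the deposited table and -0.64 on its brightest probe or its tested probes, and turned to 0.22 with scaling to all probes and 0.029 with normexp, although neither tested EM1 probe changed sign there. An offset added before scaling draws dim signals together by construction.

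Calls among the probes of the 4 genes are given with the share of all tested probes called in the same fit. They numbered 5 in the text (13.6% of all). They numbered 3 with quantile normalization (9.51%), in the deposited table (9.24%) and with normexp followed by quantile normalization (14%). They numbered 4 with median scaling (11.3%). They numbered 1 with normexp (2.39%), a filter of 1 array (1.14% of 6915 probes) or slide as a random block (3.35%). They numbered 0 with scaling to all probes (4.81%), no filter (0.393% of 15013 probes) or slides averaged (1.35%). With single arrays left out they numbered 3 to 5 (4.54% to 28.6%). The 5 without wild-type replicate 3 were 3 of FUS3, 1 of EM1 and probe 2 of ABI3, in a fit that called 28.6% of all tested probes. With the replicate block the calls among the 4 genes numbered 2 (3.86%), and the list calls 0.

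Over all tested probes 171 were called higher and 284 lower. The counts were 58 and 71 with the replicate block, 57 and 55 with slide as a random block, 29 and 16 with slides averaged, 47 and 33 with normexp, 39 and 20 with no filter, 45 and 34 with a filter of 1 array, and 26 and 37 without the 2 dimmest arrays. Falls numbered 146 with quantile normalization, 186 with median scaling, 36 with scaling to all probes and 138 in the deposited table. Left-out arrays gave 77 to 277 higher and 75 to 770 lower, the latter without wild-type replicate 3. The median tested probe moved from -0.26 to 0.35 with scaling to all probes and to -0.02 with quantile normalization. It was 0.16 with no filter and -0.43 with a filter of 1 array.

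In the fixed lists the 1 rise became 0 with normexp, no filter, a filter of 1 array, slide as a random block, slides averaged and without the 2 dimmest arrays, and 0 to 2 with arrays left out. The 0 falls became 4 with normexp followed by quantile normalization and 0 to 2 with arrays left out.

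Among probes that were not called in the text, small differences changed sign. With scaling to all probes they were 0.36 for ABI5, 0.27 for ABI4, 0.45 for PKL, 0.27 for DCL1, 0.56 for AT3G26612, 0.60 for AT1G77138 and 0.54 for AT4TU029990, and among called ones 0.0042 for AT4G04077 and 0.031 for AT3G24518. ABI4 stood at 0.23 with quantile normalization and in the deposited table, 0.17 with normexp, 0.026 with normexp followed by quantile normalization and -0.83 to 0.061 with arrays left out, and PKL at 0.046 with normexp followed by quantile normalization. AT3G26612 stood at 0.028 with median scaling and 0.0049 with normexp. AT1G77138 stood at 0.066 with quantile normalization, 0.068 with median scaling, 0.072 in the deposited table, 0.12 with normexp, 0.056 with normexp followed by quantile normalization and -0.060 to 0.012 with arrays left out. AT4TU029990 stood at 0.011 with quantile normalization, 0.0095 with median scaling, 0.0096 with normexp and 0.014 in the deposited table. AT5TU059200 stood at 0.14 with normexp. Scaling to all probes divides each array by another constant, so it moves the difference of every probe by the same amount. It also widened the spread between arrays: the SE of the RDR2 difference was 0.55, against 0.125 in the main fit. The normexp offset was kept at 50, and the cause of the other shifts was not tested. Signals near background limit the values of LEC1 and ABI3.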
